A study of Mus musculus with 95 samples.

Results

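The striatum was set against the cortex in wild-type mice, each animal giving both tissues. Its members were chosen by genotype and tissue alone: 16 striatum and 16 cortex libraries of 16 animals, which is 32 of the 95 libraries of the series. The series sequenced RNA of striatum, cortex and liver from 2 zQ175 knock-in lines, in which the mouse Htt gene carries an expanded CAG repeat, and from wild-type littermates of each line. The wild-type animals lacked the expanded repeat, were of C57BL6/J background and were 6 months old. Of the 16, 8 were littermates of the line whose knock-in allele lacks the neo selection cassette (CHDI-81003019, neo-out below) and 8 were littermates of the line that keeps it (CHDI-81003003, neo-in below), with 4 females and 4 males in each. Heterozygous (Het) mice of the same lines and age, 15 of them with both tissues, served for a single comparison near the end. Both tissues came from the left hemisphere and were frozen and extracted whole, so each library mixes all cell types of its dissected piece. In such bulk libraries fewer cells of a type and less RNA per cell cannot be told apart.

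The striatum is the main input station of the basal ganglia. Nearly all of its neurons are medium spiny neurons (MSNs), GABAergic cells that receive glutamate from cortex and thalamus and dopamine from the midbrain. Direct-pathway MSNs carry the dopamine receptor Drd1 and the peptides substance P and dynorphin, indirect-pathway MSNs carry the dopamine receptor Drd2, the adenosine receptor Adora2a and enkephalin, and a small population of cholinergic interneurons sits among them. The cortex is built mainly of layered glutamatergic pyramidal neurons, which load vesicles through Slc17a7, with a minority of GABAergic interneurons of several peptide classes. In development the pyramidal neurons arise from the pallium, and the MSNs and most interneurons arise from the subpallium, under different sets of transcription factors.

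Depth was even between the tissues. The summed expected counts came to 32.61 to 43.05 M counts per striatum library (median 36.33 M counts) and to 31.02 to 43.99 M counts per cortex library (median 35.31 M counts). Mitochondrially encoded genes took 12.44 to 15.01% of the counts in striatum (median 13.67) and 9.66 to 11.96% in cortex (median 10.64). No pair of libraries within a group of the same line, sex and tissue looked like a library deposited more than once. Levels are given below as CPM, counts scaled to a common library size with TMM factors; a range is the lowest to the highest of the 16 libraries of a tissue.

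A large part of the transcriptome differed between the tissues. In a paired edgeR quasi-likelihood fit, 12807 of 16658 tested genes passed an adjusted p of 0.05, which is 76.9% of them. Of these, 6644 genes (39.9%) were higher in striatum and 6163 genes (37.0%) were lower. A gene list with calls in both directions is to be read beside these shares. Since so many genes passed, a second rule asked in addition for at least a 2-fold difference: 1033 genes (6.20%) were 2-fold higher in striatum and 1170 genes (7.02%) were 2-fold lower. At 8-fold or more the counts were 160 higher and 164 lower, and at 32-fold or more they were 43 higher and 25 lower. The median log2 fold change of all tested genes was 0.02 and their median absolute log2 fold change was 0.29, so most passing genes differed by little. In 2008 genes (12.1%) the lowest striatum library lay above the highest cortex library, and in 2291 genes (13.8%) the highest striatum library lay below the lowest cortex library.

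**Figure D1:**
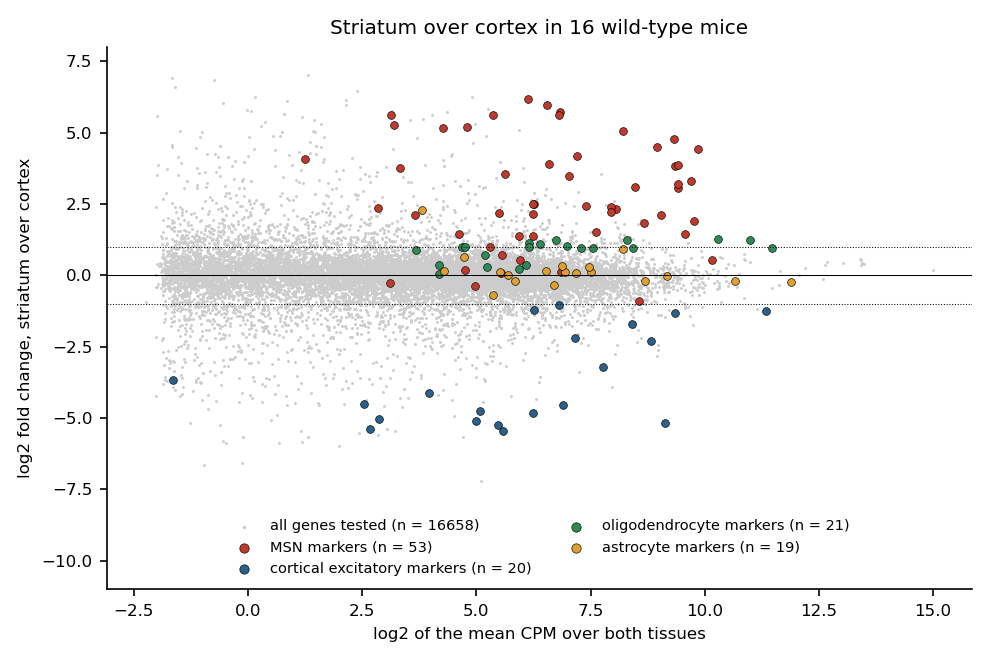
Each point is a gene, with its log2 mean CPM over both tissues on the x axis and its log2 fold change of striatum over cortex on the y axis; dotted lines mark 2-fold. The tested MSN markers lie mostly above the upper line and all 20 cortical excitatory markers lie below the lower line, while most astrocyte markers sit near 0.

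The tissue labels were first checked against defining markers. Among 30 genes shared by both kinds of MSN, all were tested, 29 were higher in striatum and 1 was lower, with 26 at 2-fold higher and a median log2 fold change of 2.41. Their summed level was 16660 to 21300 CPM in striatum (median 18810) and 3349 to 4116 CPM in cortex (median 3530), with no overlap. Among 20 markers of cortical excitatory neurons, all were tested and all 20 were at least 2-fold lower in striatum, with a median log2 fold change of -4.31. These sums were 2222 to 3166 CPM in striatum (median 2485) and 7101 to 9421 CPM in cortex (median 8755). The labels therefore held in all 32 libraries, yet neither tissue was free of the other's markers.

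Some libraries held more of the other tissue's markers than the rest. The vesicular glutamate transporter gene Slc17a7 stood above 50 CPM in 5 striatum libraries, 1 of the neo-in line (female replicate 3, at 141 CPM) and 4 of the neo-out line (female replicates 3 and 4, male replicates 2 and 3), where the lowest had 55.9 CPM. The other striatum libraries had at most 48.9 CPM. For 13 of the 20 cortical markers, at least 4 of these 5 libraries were among the 5 highest of the striatum. The 13 include Slc17a7 itself, which defined the 5 libraries. In cortex, Adora2a was highest in 5 libraries (neo-in female replicates 1, 2 and 3, neo-out male replicates 3 and 4), at 6.00 CPM or more against at most 4.86 CPM in the other 11. For 19 of 42 other 2-fold MSN markers, at least 4 of those libraries were also among their 5 highest in cortex. The choroid plexus gene Ttr was 1321 CPM in the striatum of neo-out female replicate 3 and 1561 CPM in the cortex of neo-out female replicate 1, against 4.45 to 94.2 CPM in the other striatum libraries and 2.48 to 33.1 CPM in the other cortex libraries. Some results on cortical markers are given below with all 16 animals and also without the 5 animals above 50 CPM of striatal Slc17a7. That alternative was added after seeing the data. Cortical genes given without it may shift too.

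**Figure D2:**
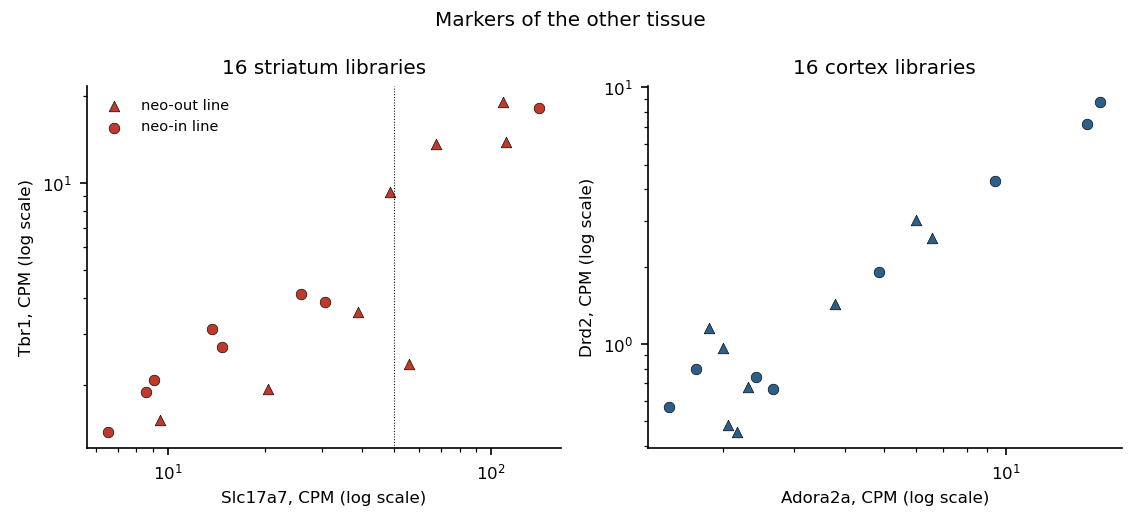
Left, Tbr1 against Slc17a7 in the 16 striatum libraries; right, Drd2 against Adora2a in the 16 cortex libraries; all axes are CPM on a log scale, and triangles are the neo-out line and circles the neo-in line. The dotted line marks 50 CPM of Slc17a7, and the libraries high in Slc17a7 are mostly those high in Tbr1, with neo-out male replicate 3 (2.35 CPM of Tbr1) as an exception.

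The shared MSN markers spanned receptors, second-messenger enzymes and channels. Pde10a, the phosphodiesterase that degrades cAMP and cGMP in MSNs, ran 1417 to 2081 CPM in striatum (median 1781), against 55.8 to 173 CPM in cortex (median 74.7), with a log2 fold change of 4.43 ± 0.12 (SE; adjusted p = 7.88e-18). Ppp1r1b encodes DARPP-32, the phosphatase inhibitor that integrates dopamine and glutamate signals, and ran 1071 to 1628 CPM in striatum (median 1251), against 63.7 to 132 CPM in cortex (median 84.5). It differed by a log2 fold change of 3.85 ± 0.06 (SE; adjusted p = 1.52e-20), and on the length-scaled FPKM scale its median was 900.3 in striatum and 58.0 in cortex. Rgs9, which speeds the shut-off of G protein signals downstream of Drd2 and opioid receptors, was the steepest of the signalling genes of the list, with 437 to 679.5 CPM in striatum (median 573), against 11.2 to 53.5 CPM in cortex (median 13.9) and a log2 fold change of 5.06 ± 0.17 (SE; adjusted p = 2.72e-16).

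The steepest members of the shared list were Lrrc10b and Syndig1l. Lrrc10b ran 166 to 225 CPM in striatum (median 178), against 1.09 to 8.34 CPM in cortex (median 2.14), with a log2 fold change of 5.97 ± 0.22 (SE; adjusted p = 1.07e-15). Syndig1l, also called capucin and related to a synapse-differentiation protein, ran 182 to 291 CPM in striatum (median 216), against 2.05 to 12.7 CPM in cortex (median 3.57), with a log2 fold change of 5.62 ± 0.18 (SE; adjusted p = 1.36e-16). Both were separated between tissues in every library. The transcription factors of the list were less steep: Bcl11b (also Ctip2), needed for MSN differentiation, had a log2 fold change of 2.44, Meis2 one of 2.38 and Foxp1 one of 1.52. The sodium channel subunit Scn4b ran 1317 to 1809 CPM in striatum (median 1504), against 134 to 190.3 CPM in cortex (median 153), and its log2 fold change was 3.30. At the low end, the calcium-release channel gene Itpr1 was only 0.55 higher on the log2 scale and its libraries overlapped. Ddit4l, an inhibitor of mTOR signalling that had been listed as an MSN marker, was the single member lower in striatum, at 21.9 to 32.2 CPM in striatum (median 26.8), against 30.2 to 42.2 CPM in cortex (median 36.1), with a log2 fold change of -0.38 ± 0.04 (SE; adjusted p = 6.66e-08). Its libraries overlapped.

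Of 12 direct-pathway genes, all tested, 10 were higher and 2 lower in striatum, 9 of them at 2-fold higher, with a median log2 fold change of 2.31. Drd1 ran 239 to 325 CPM in striatum (median 271), against 10.6 to 30.6 CPM in cortex (median 13.8), with a log2 fold change of 4.20 ± 0.11 (SE; adjusted p = 1.14e-17). Tac1, the precursor of substance P, ran 154 to 213 CPM in striatum (median 174), against 8.33 to 35.5 CPM in cortex (median 9.83), with a log2 fold change of 3.90 ± 0.17 (SE; adjusted p = 2.77e-14). Pdyn, the dynorphin precursor, ran 114 to 164 CPM in striatum (median 121), against 17.5 to 36.6 CPM in cortex (median 21.7), with a log2 fold change of 2.50 ± 0.08 (SE; adjusted p = 2.13e-16). These receptor and peptide genes thus separated fully between the tissues. Isl1, a LIM homeobox factor of direct-pathway MSNs and of cholinergic interneurons, was the steepest at 5.63, and Slc35d3, which helps bring Drd1 to the cell surface, followed at 5.15. Without neo-in female replicate 3 the value of Isl1 was 6.26. Chrm4, the muscarinic receptor that opposes Drd1 signalling, was higher by 1.39 on the log2 scale. The members ran from -0.89 to 5.63 on the log2 scale, and Eya1, at -0.26, was the less steep of the 2 lower ones; with limma on log2(FPKM + 0.1), 1 member was 2-fold lower.

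Of 12 indirect-pathway genes 11 were tested, all 11 were higher in striatum and 8 were 2-fold higher, with a median log2 fold change of 4.79. Drd2 ran 119.6 to 160.3 CPM in striatum (median 138), against 0.453 to 8.73 CPM in cortex (median 1.06), and its log2 fold change of 6.17 ± 0.28 (SE; adjusted p = 4.33e-14) was the largest of the list. Adora2a, whose product stimulates cAMP in indirect-pathway MSNs, ran 187 to 308 CPM in striatum (median 219), against 1.47 to 17.1 CPM in cortex (median 2.54), with a log2 fold change of 5.71 ± 0.25 (SE; adjusted p = 2.68e-14). Penk, the enkephalin precursor, ran 1084 to 1433 CPM in striatum (median 1238), against 25.3 to 145 CPM in cortex (median 37.6), with a log2 fold change of 4.79 ± 0.17 (SE; adjusted p = 9.99e-16). The cortical libraries with the most Drd2 and Adora2a were the 5 named above, but even there both genes stayed far below every striatum library. Gpr6, a constitutively active receptor that raises cAMP, was higher by 5.21 on the log2 scale, and Sp9, a zinc finger factor needed for indirect-pathway MSNs, by 2.36. Oprd1, Grik3 and Ptprm, also listed, differed by only 0.18, 0.10 and 0.07 and their libraries overlapped. The calls of Oprd1 and Grik3 were lost in the neo-out line alone (adjusted p = 0.271 and 0.0928) and in males alone (0.169 and 0.191). The call of Ptprm was lost under DESeq2 (adjusted p = 0.0943) and when any 1 of 12 animals was left out. On the FPKM scale the medians of the dopamine receptors in striatum were close, at 88.2 for Drd2 and 77.3 for Drd1, whereas in cortex they were 0.676 for Drd2 and 3.89 for Drd1.

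**Figure D3:**
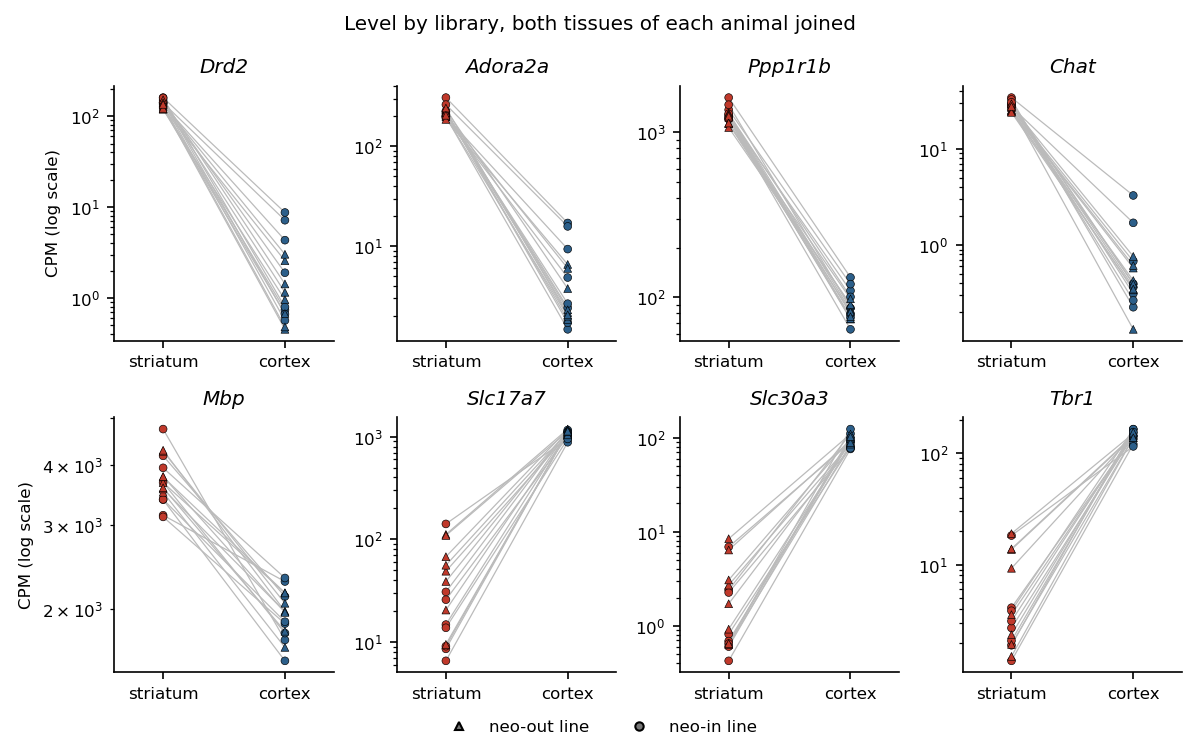
Each panel gives the CPM of a gene on a log scale in the striatum (left) and the cortex (right) of the 16 animals, with a line joining the tissues of an animal. Drd2, Adora2a, Ppp1r1b, Chat and Mbp are higher in the striatum of every animal and Slc17a7, Slc30a3 and Tbr1 are lower in every animal, without overlap of the libraries.

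Promoters of 3 of the striatal genes and 3 of the cortical genes are shown because they bracket the comparison: a receptor pair of indirect-pathway MSNs (Drd2, Gpr6) and the homeobox factor Six3, against the glutamate transporter Slc17a7 and the pyramidal neuron factors Neurod2 and Tbr1. Each is the 250 bases before the annotated start in RefSeq (GRCm38.p6), written 5′ to 3′ on the strand of the gene. Capitals mark matches on either strand. The letters searched were TATAAA for the TATA box. TGACGTCA was searched for the cAMP response element. GGGCGG was searched for the GC box, and such matches may overlap each other. Both CAGATG, one E-box of basic helix-loop-helix factors, and another E-box, CAGCTG, were searched too.
Drd2, chr9:49340153-49340402, plus strand: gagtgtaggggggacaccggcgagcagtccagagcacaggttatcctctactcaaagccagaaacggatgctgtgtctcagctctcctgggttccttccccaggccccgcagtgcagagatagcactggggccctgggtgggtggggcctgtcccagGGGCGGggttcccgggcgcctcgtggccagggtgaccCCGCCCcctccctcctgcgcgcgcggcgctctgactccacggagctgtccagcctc
Gpr6, chr10:41072291-41072540, minus strand: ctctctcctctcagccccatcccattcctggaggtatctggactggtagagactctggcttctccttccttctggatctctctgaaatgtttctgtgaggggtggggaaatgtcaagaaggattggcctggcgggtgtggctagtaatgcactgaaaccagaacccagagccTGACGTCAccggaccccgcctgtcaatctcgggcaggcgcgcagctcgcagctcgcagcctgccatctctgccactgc
Six3, chr17:85620584-85620833, plus strand: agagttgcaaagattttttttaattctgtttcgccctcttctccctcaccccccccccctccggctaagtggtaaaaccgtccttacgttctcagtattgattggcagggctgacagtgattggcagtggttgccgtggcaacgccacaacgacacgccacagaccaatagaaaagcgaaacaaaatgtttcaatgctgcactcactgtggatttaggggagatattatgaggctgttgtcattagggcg
Slc17a7, chr7:45163671-45163920, plus strand: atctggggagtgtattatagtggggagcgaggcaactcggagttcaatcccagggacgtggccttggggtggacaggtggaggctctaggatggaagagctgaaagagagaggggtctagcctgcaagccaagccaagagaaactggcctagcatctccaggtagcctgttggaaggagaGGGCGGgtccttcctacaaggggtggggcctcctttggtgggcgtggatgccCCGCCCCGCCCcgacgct
Neurod2, chr11:98329646-98329895, minus strand: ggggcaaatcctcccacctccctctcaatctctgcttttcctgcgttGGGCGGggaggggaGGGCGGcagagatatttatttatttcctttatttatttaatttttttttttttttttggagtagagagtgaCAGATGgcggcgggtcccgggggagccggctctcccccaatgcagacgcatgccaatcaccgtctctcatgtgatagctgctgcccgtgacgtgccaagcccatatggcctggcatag
Tbr1, chr2:61804203-61804452, plus strand: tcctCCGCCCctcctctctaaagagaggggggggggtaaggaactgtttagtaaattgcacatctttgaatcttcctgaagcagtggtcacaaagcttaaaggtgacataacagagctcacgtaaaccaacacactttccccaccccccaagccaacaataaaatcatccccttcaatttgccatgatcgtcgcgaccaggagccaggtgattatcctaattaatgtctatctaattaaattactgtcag

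GC boxes were matched 2 times before Drd2, 3 times before Slc17a7, 2 times before Neurod2 and 1 time before Tbr1, and not before Gpr6 or Six3. Gpr6 alone of the 6 held the cAMP response element letters and Neurod2 alone held CAGATG. Their GC content ran from 45.2% in Tbr1 to 68.8% in Drd2. Over all tested genes with a promoter in the table (12193 of 16658), 56.9% held the GC box, 10.3% CAGATG, 12.3% CAGCTG, 6.63% TATAAA and 2.66% the cAMP response element. Among 711 promoters of genes 2-fold higher in striatum the shares were 47.8% for the GC box, 14.2% for CAGATG, 16.6% for CAGCTG, 9.14% for TATAAA and 1.27% for the cAMP response element. Among 801 promoters of genes 2-fold lower they were 49.8%, 13.5%, 14%, 9.36% and 2.62% in the same order. Both directions thus departed from all genes the same way for the GC box, the E-boxes and TATAAA, and they were close to each other. A match is a description of letters and not a bound site.

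Cholinergic interneuron genes gave the highest median of any list, although their levels were low. Of 9 listed genes 8 were tested, all 8 were higher in striatum and 7 were 2-fold higher, with a median log2 fold change of 5.39; their summed level was 145 to 198 CPM in striatum (median 171) and 4.81 to 27.5 CPM in cortex (median 6.55). Chat, the acetylcholine-synthesizing enzyme, ran 23.9 to 34 CPM in striatum (median 27.4), against 0.134 to 3.28 CPM in cortex (median 0.396), with a log2 fold change of 5.47 ± 0.22 (SE; adjusted p = 5.32e-15). The cortex maximum was neo-in female replicate 1, which was also the cortex library highest in Adora2a and Drd2. Slc5a7, the choline transporter, ran 51.6 to 73.5 CPM in striatum (median 61.8), against 0.534 to 8.81 CPM in cortex (median 1.14), with a log2 fold change of 5.30. Slc10a4, a vesicular orphan transporter of cholinergic and monoaminergic neurons, and Lhx8, the LIM homeobox factor that specifies cholinergic neurons, were at 5.76 and 5.95. Without neo-in female replicate 1, Lhx8 was at 7.12. Zic4, at 0.31, was the only tested member short of 2-fold, and it did not pass without the 5 animals with high striatal Slc17a7 (log2 fold change 0.09, adjusted p = 0.447).

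GABAergic genes split by cell class. Of 10 general GABA neuron genes, all tested, 6 were higher and 2 lower in striatum, 5 at 2-fold higher and 1 at 2-fold lower, with a median log2 fold change of 1.03. Gad2, a GABA-synthesizing enzyme, ran 483 to 669.5 CPM in striatum (median 569.7), against 149 to 241 CPM in cortex (median 158), with a log2 fold change of 1.803 ± 0.06 (SE; adjusted p = 4.29e-16), and its partner Gad1 was higher by 0.91. Slc32a1, the vesicular GABA transporter, was higher by 1.28. The homeobox gene Dlx6 was the steepest of the list at 3.18 and Dlx1 was lower at -1.01, so members of 1 gene family lay on opposite sides. Dlx1 lay at the 2-fold limit and was within it at -0.998 without neo-out female replicate 4 and at -0.97 without the 5 animals with high striatal Slc17a7, which leaves no member 2-fold lower.

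Interneuron peptide classes were mostly lower in striatum. Of 16 GABA interneuron markers, all tested, 4 were higher and 9 lower, with 2 at 2-fold higher and 7 at 2-fold lower and a median log2 fold change of -0.39. Vip ran 0.803 to 2.72 CPM in striatum (median 1.37), against 36.3 to 51.9 CPM in cortex (median 44.4), with a log2 fold change of -4.92 ± 0.12 (SE; adjusted p = 4.33e-18). Cck, which both interneurons and pyramidal cells express, ran 2.66 to 19.9 CPM in striatum (median 6.01), against 118 to 169.5 CPM in cortex (median 154), with a log2 fold change of -4.34 ± 0.21 (SE; adjusted p = 9.78e-14). Cort (cortistatin) and Crhbp were lower as well, at -3.97 and -2.89. Without the 5 animals with high striatal Slc17a7, Cort was at -4.97. None of these 4 overlapped between tissues. Sst and Npy, peptides that striatal interneurons also make, were lower too, at -0.44 and -1.15, and Nos1, which marks the same striatal cells, was higher by 0.96. Pvalb ran 32.1 to 75.97 CPM in striatum (median 50.4), against 44.1 to 75.5 CPM in cortex (median 61.7), a log2 fold change of -0.33 with overlapping libraries. Its call was lost in the neo-in line alone (adjusted p = 0.0916). Lhx6, the factor of interneurons from the medial ganglionic eminence, had 18.1 to 24.6 CPM in striatum (median 20.5), against 17.2 to 23.2 CPM in cortex (median 20.4) and did not pass (log2 fold change 0.05 ± 0.04 SE, adjusted p = 0.269).

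The cortical excitatory markers were led by genes of glutamate release and of pyramidal identity. Slc17a7 ran 6.55 to 141 CPM in striatum (median 28.3), against 882 to 1185 CPM in cortex (median 1112), with a log2 fold change of -5.17 ± 0.36 (SE; adjusted p = 3.80e-11). Slc30a3, the vesicular zinc transporter, ran 0.425 to 8.44 CPM in striatum (median 1.32), against 75.9 to 123 CPM in cortex (median 91.8), with a log2 fold change of -5.46 ± 0.29 (SE; adjusted p = 4.84e-13). Every cortex library stood above every striatum library in both. Without those 5 animals the log2 fold changes were -5.94 for Slc17a7 and -6.36 for Slc30a3, and the median of the list was -4.72 in place of -4.31. The basic helix-loop-helix factors Neurod2 and Neurod6 were at -5.11 and -4.75, the T-box factor Tbr1 at -4.84 and the homeobox factor Emx1 at -5.40; without the 5 animals they were at -6.06, -5.65, -5.62 and -6.52. The list also held genes that MSNs use, and these differed less: Camk2a at -1.25, Nrgn (neurogranin) at -1.31 and Lmo4 at -1.03. Nrgn was the only one of the 20 whose libraries overlapped.

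Layer genes did not move as blocks. Of 16 genes of layers 2 to 4, 15 were tested, 4 were higher in striatum and 9 lower, with 2 and 6 at 2-fold and a median log2 fold change of -0.85. Cux2 ran 10.9 to 27.7 CPM in striatum (median 17.5), against 86.8 to 142 CPM in cortex (median 116), with a log2 fold change of -2.72 ± 0.10 (SE; adjusted p = 5.06e-16), and Rasgrf2 and Rorb were lower at -2.04 and -1.26 on the log2 scale. Otof and Wfs1, in contrast, were 2-fold higher in striatum at 1.18 and 1.09. Of 22 genes of layers 5 and 6, 21 were tested, 8 were higher and 11 lower, with 5 and 7 at 2-fold and a median of -0.39. Fezf2, the selector of subcerebral projection neurons, ran 1.52 to 6.59 CPM in striatum (median 2.32), against 14.5 to 25.3 CPM in cortex (median 20.1), with a log2 fold change of -2.86 ± 0.15 (SE; adjusted p = 2.53e-13). Nr4a2, which marks the subplate and claustrum, ran 1.41 to 27.4 CPM in striatum (median 3.502), against 28.2 to 72.5 CPM in cortex (median 53.2), with a log2 fold change of -3.25 ± 0.36 (SE; adjusted p = 7.39e-08); without the 5 animals with high striatal Slc17a7 it was -4.00. Ccn2 and Cplx3 of layer 6b were lower at -2.17 and -2.17. Genes named for deep layers but also used by MSNs went the other way: Syt6 was higher by 2.80, the language-related forkhead gene Foxp2 by 2.41 and Crym by 1.89.

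Developmental patterning factors kept a divided pattern in the adult tissue. Of 35 listed factors 29 were tested, 17 were higher in striatum and 9 lower, with 13 at 2-fold higher and 7 at 2-fold lower and a median log2 fold change of 0.57. Six3 ran 51.1 to 67.8 CPM in striatum (median 58.6), against 0.0323 to 5.29 CPM in cortex (median 0.385), with a log2 fold change of 6.25 ± 0.31 (SE; adjusted p = 1.53e-13). Six3os1, the noncoding transcript from the opposite strand beside Six3, ran 26.6 to 34.5 CPM in striatum (median 31.8), against 0.0918 to 3.55 CPM in cortex (median 0.297), with a log2 fold change of 5.60 ± 0.31 (SE; adjusted p = 8.02e-13); the sources give no strand setting, and where the pair overlaps its reads cannot be told apart. Other subpallial factors were also higher, among them Lhx8 and Nkx2-1 at 5.95 and 5.30, Zfp503 at 2.62, Meis1 at 2.54 and Ebf1 at 2.11. Pallial factors were lower, with Tbr1 at 1.37 to 18.99 CPM in striatum (median 3.34), against 115 to 164 CPM in cortex (median 145) and a log2 fold change of -4.84 ± 0.32 (SE; adjusted p = 1.41e-11). Emx1 ran 0.0260 to 1.15 CPM in striatum (median 0.169), against 8.94 to 17.3 CPM in cortex (median 12.2), and Nr2f1 (COUP-TFI) was lower at -1.96. Pax6 had 6.50 to 9.92 CPM in striatum (median 8.29), against 6.14 to 11.2 CPM in cortex (median 7.53) and did not pass over all 16 animals (adjusted p = 0.385). It passed in the neo-out line alone, at 0.25 (adjusted p = 0.0103), and in males alone, at 0.21 (adjusted p = 0.00784), while its differences by line and by sex did not pass (adjusted p = 0.66 and 0.997).

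**Figure D4:**
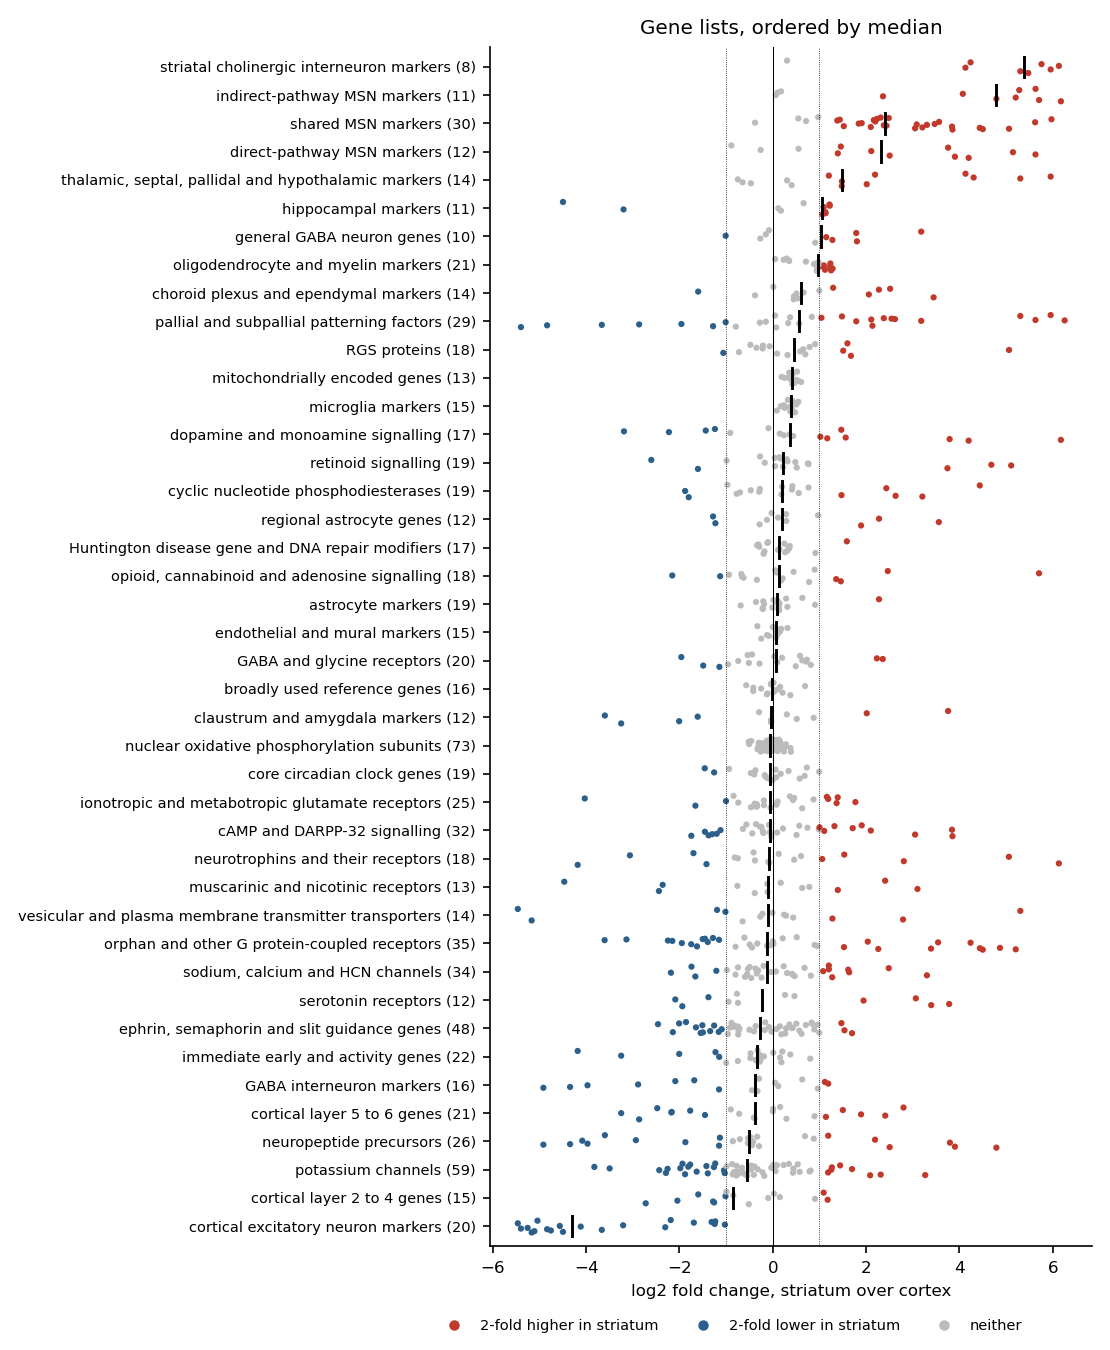
Each row is a gene list with its number of tested genes in brackets, each dot a gene at its log2 fold change of striatum over cortex and each black bar the median of the list; red and blue dots are genes called at 2-fold. Medians run from -4.31 for the cortical excitatory markers to 5.39 for the cholinergic interneuron markers, and most receptor, channel and signalling lists have 2-fold genes on both sides of 0.

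Dopamine receptors were higher and most adrenergic receptors lower in striatum. Of 19 genes 17 were tested, 11 were higher in striatum and 5 lower, with 7 and 4 at 2-fold and a median log2 fold change of 0.36. All 4 dopamine receptor genes that were tested were 2-fold higher: beside Drd2 and Drd1, Drd3 was at 3.79 and Drd5 at 1.17, both at low levels with overlapping libraries. Drd3 ran 0.624 to 1.61 CPM in striatum (median 1.22), against 0 to 0.807 CPM in cortex (median 0.0134); its value was 4.39 without neo-in female replicate 1 and 4.44 without neo-in female replicate 3. Among the adrenergic receptors, Adra1d ran 0.607 to 2.61 CPM in striatum (median 1.45), against 7.99 to 19.3 CPM in cortex (median 13.5), with a log2 fold change of -3.19 ± 0.15 (SE; adjusted p = 5.88e-14), and Adra1b, Adra2a and Adrb1 were 2-fold lower at -2.23, -1.44 and -1.24. Adra2c, an adrenergic receptor known from the striatum, was 2-fold higher at 1.47. Maoa, a monoamine-degrading enzyme, differed by only 0.24.

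Serotonin receptors had calls in both directions, as all tested genes did. Of 14 genes 12 were tested, 6 were higher and 6 lower, with 4 and 3 at 2-fold and a median log2 fold change of -0.24. Htr1b, an inhibitory receptor of MSN terminals, ran 56.1 to 98.8 CPM in striatum (median 80.7), against 6.29 to 10.1 CPM in cortex (median 7.43), with a log2 fold change of 3.39 ± 0.08 (SE; adjusted p = 8.76e-19). Htr1d, Htr4 and Htr2c were higher by 3.78, 3.06 and 1.94 on the log2 scale. Htr1a ran 2.72 to 6.65 CPM in striatum (median 3.94), against 13.6 to 19.8 CPM in cortex (median 15.4), with a log2 fold change of -1.94 ± 0.08 (SE; adjusted p = 4.53e-15), and Htr5a was lower at -1.38. Htr3a, the ion-channel receptor of a cortical interneuron class, was lower at -2.09. Among 13 tested acetylcholine receptor genes of 14 listed, 6 were higher and 5 lower (3 and 3 at 2-fold). Chrm3 was lower at -2.44 and Chrm4 higher by 1.39, whereas Chrm2 had 15.6 to 24.4 CPM in striatum (median 18.7), against 15.9 to 25.7 CPM in cortex (median 20.97) and did not pass (log2 fold change -0.11, adjusted p = 0.0631). It did pass under DESeq2 (adjusted p = 0.0418) and when any 1 of 6 animals was left out.

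Among 18 genes of opioid, cannabinoid and adenosine signalling, all tested, 8 were higher and 7 lower in striatum, with 4 and 2 at 2-fold and a median log2 fold change of 0.13. The cannabinoid receptor Cnr1 ran 305 to 487 CPM in striatum (median 395), against 141 to 167 CPM in cortex (median 158), with a log2 fold change of 1.36 ± 0.04 (SE; adjusted p = 1.72e-16). The enzymes that remove its ligands were lower: Faah, which degrades anandamide, ran 19.2 to 31.7 CPM in striatum (median 23.4), against 93.2 to 124 CPM in cortex (median 109), with a log2 fold change of -2.15 ± 0.06 (SE; adjusted p = 6.48e-18), and Mgll, which degrades 2-arachidonoylglycerol, was lower at -1.13. Dagla, which makes that ligand, was at -0.63. The adenosine receptors were opposed, with Adora2a higher by 5.71 and Adora1 lower at -0.67. Nt5e, the surface enzyme that makes adenosine from AMP, was higher by 2.46. Of the opioid receptors Oprk1 was higher by 1.46 and Oprm1 by 0.78. Oprm1 was low, at 0.802 to 1.68 CPM in striatum (median 1.31), against 0.255 to 1.49 CPM in cortex (median 0.733). Its call was lost in the neo-in line alone (adjusted p = 0.07965) and in females alone (adjusted p = 0.334).

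Neuropeptide precursors leaned lower in striatum by count but not by level. Of 28 genes 26 were tested, 8 were higher and 17 lower, with 6 and 9 at 2-fold and a median log2 fold change of -0.50. Their summed level was nevertheless 2360 to 2756 CPM in striatum (median 2498) against 1412 to 1611 CPM in cortex (median 1509), and Penk was the most abundant precursor in striatum. Nts (neurotensin) was higher by 3.79 and Trh by 2.19. Adcyap1, the PACAP precursor, ran 0.321 to 2.29 CPM in striatum (median 0.752), against 11.1 to 20.3 CPM in cortex (median 13.9), with a log2 fold change of -4.08 ± 0.17 (SE; adjusted p = 6.76e-15). Grp and Crh were lower at -2.93 and -1.87, with Grp at -3.64 without the 5 animals with high striatal Slc17a7.

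Orphan and other G protein-coupled receptors also had calls in both directions. Of 36 genes 35 were tested, 14 were higher and 18 lower, with 10 and 12 at 2-fold and a median log2 fold change of -0.12. Beside Gpr6, the orphan receptors Gpr139, Gpr101, Gpr149 and Gpr83 were higher by 4.87, 4.44, 3.39 and 2.26. The tachykinin receptors Tacr1 and Tacr3 were higher by 4.24 and 3.54. All 4 tested somatostatin receptors were 2-fold lower, led by Sstr3 at 1.24 to 3.97 CPM in striatum (median 1.88), against 21.3 to 30.6 CPM in cortex (median 24.8) and a log2 fold change of -3.60 ± 0.12 (SE; adjusted p = 2.27e-16), with Sstr2, Sstr1 and Sstr4 at -2.25, -2.15 and -1.15. Cckbr, the brain cholecystokinin receptor, ran 4.47 to 10.1 CPM in striatum (median 5.51), against 41.2 to 62.95 CPM in cortex (median 53.7), with a log2 fold change of -3.14 ± 0.09 (SE; adjusted p = 1.83e-17), in the same direction as its ligand gene Cck.

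Genes of cAMP signalling were divided by isoform. Of 32 listed genes, all tested, 15 were higher and 15 lower, with 9 and 6 at 2-fold and a median log2 fold change of -0.05. Among all tested genes 39.9% were higher and 37.0% lower, and 6.20% and 7.02% were so at 2-fold. Adcy5, the main adenylyl cyclase of MSNs, ran 1069 to 1501 CPM in striatum (median 1185), against 120.3 to 216 CPM in cortex (median 141), with a log2 fold change of 3.05 ± 0.05 (SE; adjusted p = 1.14e-20). Adcy1, the calcium-stimulated cyclase of cortical neurons, ran 307 to 552 CPM in striatum (median 368), against 1080 to 1488 CPM in cortex (median 1332), with a log2 fold change of -1.75 ± 0.06 (SE; adjusted p = 7.32e-16). On the FPKM scale the medians were 171 for Adcy5 and 30.2 for Adcy1 in striatum, against 20.01 for Adcy5 and 107 for Adcy1 in cortex. The stimulatory G protein subunits were opposed too. Gnal (Golf), which couples Drd1 and Adora2a, ran 756 to 960.0 CPM in striatum (median 850.1), against 179 to 257 CPM in cortex (median 198), with a log2 fold change of 2.10 ± 0.05 (SE; adjusted p = 5.75e-19), and its relative Gnas (Gs) ran 412 to 618 CPM in striatum (median 503), against 1007 to 1140 CPM in cortex (median 1089), with a log2 fold change of -1.12 ± 0.04 (SE; adjusted p = 5.48e-16). Gng7, the gamma subunit that pairs with Golf, was higher by 3.84, and Ric8b, the Golf chaperone, by 1.71. The regulatory kinase subunits split likewise, with Prkar2b higher by 1.10 and Prkar1b lower at -1.46, while the catalytic subunit gene Prkacb differed by 0.09, a call that was lost without neo-in female replicate 2 (adjusted p = 0.0591), neo-in male replicate 1 (adjusted p = 0.0715) or neo-out female replicate 1 (adjusted p = 0.0783).

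Phosphodiesterases and RGS proteins had calls in both directions as well. Of 22 phosphodiesterase genes 19 were tested, 11 were higher and 8 lower, with 5 and 2 at 2-fold and a median log2 fold change of 0.20. Their summed level was 3344 to 4411 CPM in striatum (median 3894) and 931 to 1167 CPM in cortex (median 984). Pde1b, a calmodulin-dependent enzyme, ran 1051 to 1438 CPM in striatum (median 1214), against 118 to 189 CPM in cortex (median 126), with a log2 fold change of 3.21 ± 0.05 (SE; adjusted p = 1.14e-20), and its relative Pde1a ran 29.1 to 68.8 CPM in striatum (median 51.9), against 152 to 207 CPM in cortex (median 178), with a log2 fold change of -1.80 ± 0.07 (SE; adjusted p = 7.79e-15). Pde7b was higher by 2.43 and Pde1c by 2.63, and Pde5a was lower at -1.88. Of 21 RGS genes 18 were tested, 11 were higher and 6 lower, with 4 and 1 at 2-fold. Rgs2 and Rgs8 were higher by 1.67 and 1.51, and Rgs6 was lower at -1.06.

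Glutamate receptor genes went both ways. Of 25 listed genes, all tested, 11 were higher and 12 lower, with 5 and 3 at 2-fold and a median log2 fold change of -0.05; 8 of 25 at 2-fold stands beside 13.2% of all genes tested. The AMPA receptor gene Gria2 had 555 to 768 CPM in striatum (median 680.4), against 617 to 784 CPM in cortex (median 701) and did not pass (log2 fold change -0.05, adjusted p = 0.287; 0.0469 without neo-out female replicate 1), and Grin1 and Grin2b were lower at -0.33 and -0.19. The call of Grin2b was lost in the neo-out line alone (adjusted p = 0.0602). The presynaptic metabotropic receptor Grm2 ran 1.32 to 4.02 CPM in striatum (median 1.93), against 27.7 to 50.1 CPM in cortex (median 35.7), with a log2 fold change of -4.03 ± 0.11 (SE; adjusted p = 9.71e-18), and Grin2a was lower at -1.66. The kainate receptor Grik2 was higher by 1.77, and the metabotropic receptors Grm4 and Grm5 by 1.39 and 1.16. Of 20 tested GABA and glycine receptor genes of 21 listed, 10 were higher and 9 lower (2 and 3 at 2-fold). The subunit Gabra3 and the metabotropic subunit Gabbr2 were lower at -1.49 and -1.96, and Gabrd and Gabra4 were higher by 0.73 and 0.81. Among transmitter transporters (14 of 18 tested, 6 higher and 7 lower), Slc17a8, the vesicular glutamate transporter of cholinergic interneurons, was higher by 2.79.

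Potassium channels leaned lower in striatum. Of 59 listed genes, all tested, 17 were higher and 38 lower, with 8 and 17 at 2-fold and a median log2 fold change of -0.55. Among all tested genes 6.20% were 2-fold higher and 7.02% 2-fold lower. The 3 listed inward rectifiers of the GIRK type were lower, with Kcnj6 at 1.02 to 3.62 CPM in striatum (median 2.09), against 17.7 to 30.2 CPM in cortex (median 25.9) and a log2 fold change of -3.50 ± 0.12 (SE; adjusted p = 4.01e-16), Kcnj3 at -2.25 and Kcnj9 at -1.98. Kcnk4 was the lowest of the list at -3.82. The higher genes included the classical inward rectifier Kcnj2, which holds MSNs at their hyperpolarized rest, at 59.8 to 87.5 CPM in striatum (median 71.9), against 16.1 to 39.7 CPM in cortex (median 21.1) and a log2 fold change of 1.70 ± 0.10 (SE; adjusted p = 3.59e-12). Kcna4, Kcnd2 and its partner Kcnip2, all of A-type currents, were higher by 2.09, 1.19 and 1.25. Kcna5 was the highest of the list at 3.27. Of 35 sodium, calcium and HCN channel genes 34 were tested, 15 were higher and 17 lower, with 8 and 4 at 2-fold. Cacna1g, a low-threshold calcium channel, ran 16.01 to 57.5 CPM in striatum (median 23.1), against 90.3 to 154 CPM in cortex (median 119), with a log2 fold change of -2.18 ± 0.12 (SE; adjusted p = 1.25e-12), and its relative Cacna1h was higher by 1.64.

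Neurotrophic factors and retinoid genes held some of the steepest differences outside neurotransmission. Bdnf, which striatal neurons receive from cortical terminals, ran 0.354 to 5.95 CPM in striatum (median 1.45), against 27.4 to 43.3 CPM in cortex (median 33.6), with a log2 fold change of -4.18 ± 0.23 (SE; adjusted p = 8.29e-13); without the 5 animals with high striatal Slc17a7 it was -4.85. Its receptor gene Ntrk2 was near even at -0.07 and did not pass with limma (adjusted p = 0.356). Gdnf ran 4.25 to 6.27 CPM in striatum (median 5.23), against 0 to 0.478 CPM in cortex (median 0.112), with a log2 fold change of 5.06 ± 0.22 (SE; adjusted p = 2.41e-14), and Gfra2 was lower at -3.06. Of 21 such genes 18 were tested, 7 were higher and 10 lower, with 5 and 4 at 2-fold. Of 19 retinoid genes, all tested, 10 were higher and 5 lower, with 3 and 2 at 2-fold and a median log2 fold change of 0.22. Rxrg ran 102 to 149 CPM in striatum (median 118), against 1.90 to 9.66 CPM in cortex (median 2.92), with a log2 fold change of 5.11 ± 0.16 (SE; adjusted p = 9.49e-17), and Rarb, its dimer partner, ran 98.8 to 152 CPM in striatum (median 116), against 6.97 to 17.2 CPM in cortex (median 8.22), with a log2 fold change of 3.74 ± 0.10 (SE; adjusted p = 1.06e-17). Their relatives did not share this: Rara was lower at -1.60, and Rxrb had 46.2 to 64.3 CPM in striatum (median 49.5), against 38.7 to 58.2 CPM in cortex (median 49.5) and did not pass (adjusted p = 0.363).

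Axon guidance genes leaned lower in striatum. Of 48 ephrin, semaphorin, netrin and slit genes, all tested, 19 were higher and 27 lower, with 3 and 12 at 2-fold and a median log2 fold change of -0.27. Epha8, Efnb3 and the netrin receptor Dcc were higher by 1.70, 1.54 and 1.47. Robo3, Ephb3 and Unc5d were lower at -2.46, -2.14 and -1.86. Of 22 immediate early and activity genes, all tested, 4 were higher and 16 lower, with 0 and 5 at 2-fold and a median of -0.34. Arc ran 80.4 to 242 CPM in striatum (median 138), against 74.8 to 487 CPM in cortex (median 294), with a log2 fold change of -1.15 ± 0.12 (SE; adjusted p = 4.42e-08), and Fos was at -0.999, both with overlapping libraries. Npas4 and Egr2 were the other way, at 0.38 and 0.80. The call of Npas4 was lost in the neo-in line alone (adjusted p = 0.107). Of 19 clock genes, all tested, 6 were higher and 8 lower with a median of -0.05. Dbp, a clock output gene, was higher by 0.99, and Arntl had 30.6 to 58.02 CPM in striatum (median 43.8), against 34.5 to 49.7 CPM in cortex (median 42.8) and did not pass over all 16 animals (adjusted p = 0.981). Arntl passed within each line, in opposite directions: its log2 fold change was 0.14 in the neo-out line (adjusted p = 0.00325) and -0.17 in the neo-in line (adjusted p = 0.0101). The test of the difference between the lines did not pass for Arntl (0.30 ± 0.06 SE, adjusted p = 0.084).

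Glia differed by type. Of 21 oligodendrocyte and myelin genes, all tested, 20 were higher in striatum and none lower, with 7 at 2-fold higher and a median log2 fold change of 0.97. Their sum was 9234 to 12510 CPM in striatum (median 10400) and 4384 to 6011 CPM in cortex (median 4926). Mbp ran 3113 to 4741 CPM in striatum (median 3669), against 1562 to 2323 CPM in cortex (median 1973), with a log2 fold change of 0.94 ± 0.05 (SE; adjusted p = 8.12e-13). Mobp was higher by 1.28. Progenitor genes differed less, with Pdgfra at 0.23 and Cspg4 at 16.1 to 26.02 CPM in striatum (median 17.2), against 14.2 to 23.9 CPM in cortex (median 17.9), which did not pass (adjusted p = 0.373). Myelinated fibre bundles of the internal capsule run through the striatum, and the tissue pieces were whole; the part of white matter in these values was not tested. Of 15 microglia genes, all tested, 14 were higher and none lower, none at 2-fold, with a median of 0.40. Cx3cr1 ran 59.4 to 73.8 CPM in striatum (median 65.2), against 43.8 to 57.3 CPM in cortex (median 46.8), with a log2 fold change of 0.48 ± 0.02 (SE; adjusted p = 4.51e-14).

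Astrocyte and vascular genes were near even. Of 19 astrocyte genes, all tested, 11 were higher and 6 lower with a median log2 fold change of 0.10, and Agt was the only one at 2-fold. Agt, the angiotensin precursor, ran 13.5 to 35.2 CPM in striatum (median 22.8), against 3.62 to 8.52 CPM in cortex (median 4.44), with a log2 fold change of 2.28 ± 0.09 (SE; adjusted p = 6.66e-15). The glutamate transporters Slc1a2 and Slc1a3 were at -0.22 and -0.01; Slc1a3 did not pass (adjusted p = 0.786). Of 12 genes known to differ between astrocytes of different regions, all tested, 7 were higher and 4 lower, with 3 and 2 at 2-fold. Unc13c ran 295 to 430.3 CPM in striatum (median 389.6), against 22.9 to 73.7 CPM in cortex (median 30.7), with a log2 fold change of 3.56 ± 0.10 (SE; adjusted p = 3.86e-17), and Crym was higher by 1.89, while Lhx2 and Chrdl1 were lower at -1.28 and -1.23; the list does not show which cells carry these transcripts. Of 15 endothelial and mural genes, all tested, 9 were higher and 2 lower with a median of 0.07. Flt1 ran 86.99 to 129 CPM in striatum (median 105), against 90.7 to 114 CPM in cortex (median 102), a log2 fold change of 0.07; its call was lost when any 1 of 8 animals was left out.

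Markers listed for neighbouring structures were counted as well. Of 20 thalamic, septal, pallidal and hypothalamic markers 14 were tested, 11 were higher and 3 lower, with 9 at 2-fold higher and a median log2 fold change of 1.48. The list shares Lhx8 and Zic4 with the cholinergic interneuron list, and Nkx2-1 was named above among subpallial factors. Higher levels of such genes do not by themselves mark neighbouring tissue. Nkx2-1, a factor of ventral forebrain neurons, ran 4.88 to 7.99 CPM in striatum (median 5.62), against 0 to 1.07 CPM in cortex (median 0.0822), and Gbx1 ran 2.56 to 5.36 CPM in striatum (median 3.93), against 0 to 1.29 CPM in cortex (median 0.114). Tcf7l2, abundant in thalamus, ran 5.87 to 28.1 CPM in striatum (median 9.04), against 2.86 to 5.78 CPM in cortex (median 3.96), with a log2 fold change of 1.48 ± 0.15 (SE; adjusted p = 1.57e-08). Prkcd ran 13.3 to 234 CPM in striatum (median 33.2), against 7.84 to 11.98 CPM in cortex (median 9.65), with a log2 fold change of 2.01 ± 0.26 (SE; adjusted p = 6.96e-07). Slc17a6, the glutamate transporter of thalamic and other subcortical neurons, was lower in striatum at -0.65 with overlapping libraries. Its call was lost in the neo-out line alone (-0.31, adjusted p = 0.468) and in males alone (-0.29, adjusted p = 0.448). Summed, the list ran 146 to 586 CPM in striatum (median 192.5) and 154 to 199 CPM in cortex (median 177). Of 14 tested choroid plexus and ependymal genes of 16 listed, 6 were higher and 1 lower. The cilia factor Foxj1 was at 0.998, whereas Ttr did not pass (adjusted p = 0.433). Of 11 hippocampal markers, all tested, 7 were higher and 2 lower, with 6 and 2 at 2-fold and a median of 1.06. Prox1, a homeobox factor of dentate granule cells, was higher by 1.06. Of 12 claustrum and amygdala markers, all tested, 4 were higher and 4 lower, with 2 and 4 at 2-fold and a median of -0.04. The part of neighbouring tissue in any result above was not tested.

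Mitochondrial transcripts were split by genome. All 13 mitochondrially encoded genes tested were higher in striatum, by 0.19 to 0.61 on the log2 scale with a median of 0.41, and 8 of them without overlap. mt-Nd4 ran 10860 to 14190 CPM in striatum (median 12880), against 7801 to 9702 CPM in cortex (median 8648), with a log2 fold change of 0.56 ± 0.03 (SE; adjusted p = 4.18e-12). Of 73 tested nuclear subunits of oxidative phosphorylation (74 listed), 22 were higher and 31 lower, none at 2-fold, with a median of -0.05. Ndufb10 was at 0.38 and Cox8a at -0.52, which were near the ends of their range.

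Most of the genes tied to Huntington disease differed little between the wild-type tissues. Htt ran 151 to 202 CPM in striatum (median 196), against 197 to 237 CPM in cortex (median 223), with a log2 fold change of -0.20 ± 0.03 (SE; adjusted p = 5.68e-06), so the gene was slightly lower in the striatum of these mice. Without neo-out female replicate 3, whose paired difference of -0.61 was apart from those of the other neo-out animals (-0.28 to -0.03), the log2 fold change was -0.19. Of 17 genes of this list, all tested, 10 were higher and 6 lower, 1 at 2-fold. Hap1, the huntingtin-associated protein, was higher by 0.91 and Syt9 by 1.59. The mismatch repair genes Msh3 and Mlh3, which affect repeat expansion, were higher by 0.31 and 0.35, and the nuclease gene Fan1 was higher by 0.36. Of 16 widely used reference genes, 5 were higher and 6 lower, none at 2-fold, with a median of -0.01. Actb was higher by 0.38 and Tfrc lower at -0.57, and Rpl13a had 211 to 282 CPM in striatum (median 233), against 199 to 259 CPM in cortex (median 236) and did not pass (adjusted p = 0.423).

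The genes at the extremes of the comparison were not all known neuronal genes. Under a rule of no overlap, at least 10 CPM in the higher tissue and the same sign in every animal, 394 genes stood out as higher and 565 as lower, and the 12 steepest of each are named in this text. Ptpn7, a phosphatase of MAP kinases best known from blood cells, was the steepest higher gene over all 16 animals, with 8.47 to 13.7 CPM in striatum (median 10.1), against 0 to 0.430 CPM in cortex (median 0.0829) and a log2 fold change of 6.46 ± 0.19 (SE; adjusted p = 4.05e-17). Without the 5 animals with high striatal Slc17a7, Six3 was steeper at 6.35, against 6.25 for Ptpn7. In the neo-out line alone Isl1 was at 7.45 and Ptpn7 at 6.915. In the neo-in line alone Isl1 was at 4.77 and Ptpn7 at 6.085. Cd4, the T-cell co-receptor gene, ran 68.5 to 101 CPM in striatum (median 79.5), against 0.850 to 4.35 CPM in cortex (median 1.33), with a log2 fold change of 5.63 ± 0.13 (SE; adjusted p = 1.51e-18), and was higher in 16 of 16 animals; it had been listed with the indirect-pathway genes. Serpina9, of the serine protease inhibitor family, and Sh3rf2, a SH3 and RING finger protein gene, were higher by 5.71 and 5.84. Igfn1, best known from skeletal muscle, was the steepest lower gene, with 0.0236 to 2.29 CPM in striatum (median 0.231), against 57.1 to 92.2 CPM in cortex (median 65.7) and a log2 fold change of -7.22 ± 0.26 (SE; adjusted p = 1.02e-15). Without the 5 animals with high striatal Slc17a7 its log2 fold change was -8.46. Gm11549, Dkkl1 of the dickkopf family and the noncoding gene 9130024F11Rik followed at -5.68, -5.62 and -5.52. The metalloprotease gene Adam33, the protease inhibitor gene Serpinb8 and Rtn4rl2, a homologue of the Nogo receptor, were lower at -5.46, -5.39 and -5.04 on the log2 scale. Without the same 5 animals Gm11549 was at -6.90, 9130024F11Rik at -6.61, Dkkl1 at -6.45 and Rtn4rl2 at -6.17. Adam33 and Serpinb8 were then at -5.72 and -5.93.

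The tissue difference was compared between the wild-type cohorts of the 2 lines, which asks whether littermates of the neo-out and neo-in lines gave the same contrast. It differed in 14 of 16658 genes (0.0840%) by a test of the interaction, 2 (0.0120%) with a higher value in the neo-out littermates and 12 (0.0720%) with a lower one; 886 genes had an unadjusted p below 0.05. Pwwp2b had a log2 fold change of striatum over cortex of 1.07 in neo-out and 1.67 in neo-in littermates, a difference of -0.61 ± 0.09 (SE, adjusted p = 0.0111). Gm9754 had 1.71 in neo-out and 2.79 in neo-in littermates, a difference of -1.09 ± 0.16 (SE, adjusted p = 0.0111). In Flrt2, a guidance and adhesion gene, the values were -0.62 in neo-out and -1.06 in neo-in littermates, a difference of 0.43 ± 0.06 (SE, adjusted p = 0.0111). For Nuak1, a kinase of axon branching, they were -1.84 in neo-out and -1.28 in neo-in littermates, a difference of -0.57 ± 0.09 (SE, adjusted p = 0.0111). The others of the 10 named by rule, Hs3st1, Ky, Bcor, Acer2, Smad3 and Zfp346, differed by 0.54, -0.78, -0.50, -0.38, -0.35 and -0.33. The count was 8 without neo-in male replicate 1, 8 without neo-out female replicate 3 and 0 without the 5 animals with over 50 CPM of striatal Slc17a7, 4 of which are neo-out; with those animals out the difference of Pwwp2b was -0.54. The lines were separate cohorts, so line and cohort cannot be told apart.

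By sex, no gene passed: edgeR called 0 of 16658 genes (0.00%), with 776 at an unadjusted p below 0.05, and DESeq2 called 1. At this size the test does not show that females and males were alike.

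Last, the tissue difference was compared between Het and wild-type mice in 62 libraries of 31 animals. Of 17295 genes, 2323 (13.4%) had a different striatum over cortex contrast by genotype, 1077 higher (6.23%) and 1246 lower (7.20%) in Het. Striatal Slc17a7 was above 50 CPM in 2 Het and 5 wild-type animals, and without these animals 2193 genes were called. Among the 30 shared MSN markers, 21 had a lower contrast in Het and 0 a higher one, with a median difference of -0.40. The list was chosen with earlier results of these data known, so the count is a description and not an independent test. Ryr1, a calcium-release channel gene, had a log2 fold change of striatum over cortex of 0.59 in Het and 2.16 in wild-type mice, a difference of -1.56 ± 0.10 (SE; adjusted p = 4.63e-13). In Scn4b the values were 2.42 in Het and 3.30 in wild-type mice, a difference of -0.87 ± 0.07 (SE; adjusted p = 7.86e-11). For Pde10a they were 3.67 in Het and 4.43 in wild-type mice, a difference of -0.74 ± 0.14 (SE; adjusted p = 3.89e-04). The median log2 fold change of the shared MSN list was 2.12 in Het and 2.41 in wild-type mice. Outside that list, Cnr1 had 0.53 in Het and 1.36 in wild-type mice, a difference of -0.82 ± 0.06 (SE; adjusted p = 1.70e-11). The cortical excitatory markers gave no call by genotype (0 of 20), at a median difference of -0.25. Of 11 tested indirect-pathway genes 1 was called: Cd4 had a contrast higher by 0.79 in Het. Of 12 direct-pathway genes, 2 had a higher and 2 a lower contrast in Het, with a median difference of 0.04. Of 8 tested cholinergic interneuron genes, 2 had a higher contrast and 0 a lower one, with a median difference of 1.09. Some genes of these lists had wide errors, with differences of -0.51 ± 0.46 (SE) for Slc17a7 and 0.63 ± 0.39 (SE) for Drd2. A missing call there does not show that the genotypes were alike.

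**Figure D5:**
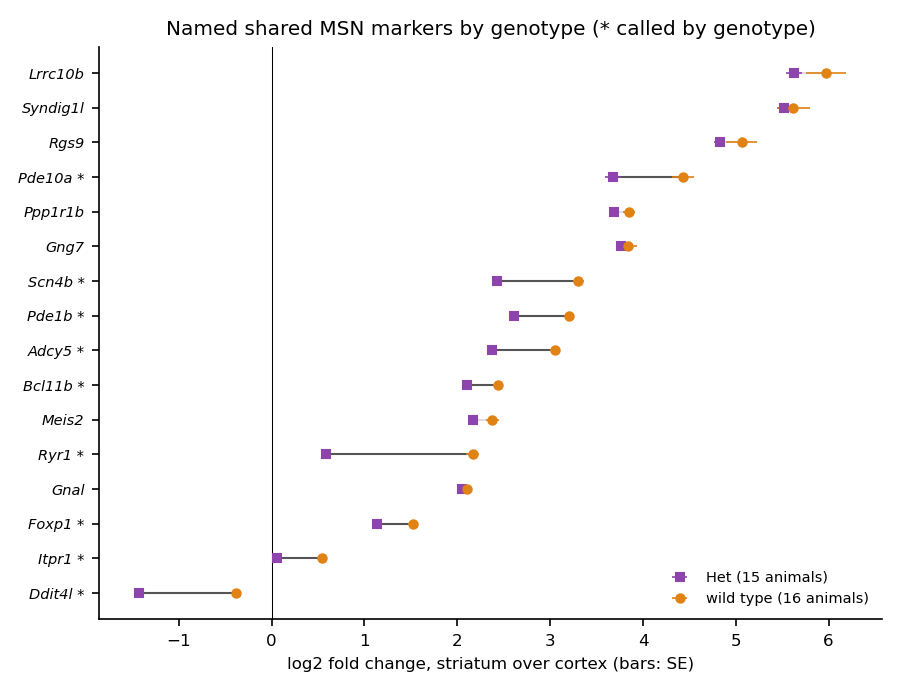
For the 16 of 30 shared MSN markers named in the text, the log2 fold change of striatum over cortex is given in Het mice (squares, 15 animals) and wild-type mice (circles, 16 animals), with SE bars and an asterisk where the difference by genotype was called. All 9 called genes of these 16 have a lower contrast in Het, with the widest gap in Ryr1 (0.59 in Het and 2.16 in wild type). The list was chosen with earlier results of these data known.

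Other genes with a clear difference by genotype included regulators outside the MSN lists. Rgs14, a signalling scaffold, had a contrast of -0.16 in Het and 0.79 in wild-type mice, and Ddit4l, of the shared MSN list, one of -1.43 in Het and -0.38 in wild-type mice. Ankrd35, Anks1b, Sh2d5 and Rasgef1a had lower contrasts in Het, with differences of -1.07, -0.58, -0.55 and -0.44. Among those with a higher contrast, Sfmbt2, a polycomb protein gene, had 1.57 in Het and 0.33 in wild-type mice. For Pcdh20, a protocadherin gene, the values were -0.37 in Het and -1.32 in wild-type mice, and for Tnnt2 they were 0.28 in Het and -1.04 in wild-type mice. A830036E02Rik, Pcdhb9, Tsnax and Polr2a differed by 0.74, 0.57, 0.42 and 0.39. Wt1, which failed the count filter in the wild-type fit, differed by 5.52; at such low counts the fitted value depends on the prior count. Whether these differences arose in the striatum or in the cortex of Het mice was not tested here, since the contrast holds both.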

How the data were processed

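RNA-seq of left striatum and left cortex was analysed from 16 wild-type mice of 6 months, with Het mice for 1 comparison. Per the submitters' processing notes, reads were processed with CASAVA 1.8.2 against mm10; the aligner and counter are not stated, nor the strand setting, in the labels. The deposited values are expected counts per gene (32.2% of values above 1 are not whole) and FPKM, both made by the authors; expected counts were rounded before testing. Of 39179 gene IDs, 37607 were named with GENCODE M21, and the other 1572 held at most 0.329% of a library's counts.

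Genes passing edgeR's count filter (16658) were fitted with edgeR 4.0.16 (R 4.3.3), by quasi-likelihood with TMM factors and the animal as a block, and p-values were adjusted by Benjamini-Hochberg over all genes tested. Tissue differences by line, sex and genotype are interaction terms of such fits; each SE was obtained from the log2 fold change and its F statistic. CPM and the paired differences use the TMM-scaled library sizes. The labels give separate animals as replicates, and the animal ID in the labels pairs the tissues. Paired tissues of an animal deviated together weakly (median correlation 0.09 over 16 animals, -0.24 to 0.43). The fit was also run on simulated data in which few genes differed between the tissues. Since most genes differed in the real contrast, that run cannot show the error rate here. Alternatives were DESeq2 1.42.0, limma 3.58.1 on log2(FPKM + 0.1), RLE factors, other count filters, no animal block, each line or sex alone, and leaving out animals; that without the animals with over 50 CPM of striatal Slc17a7 was added after seeing the data.

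Named genes were the 12 steepest in each direction with no overlap, at least 10 CPM in the higher tissue, 3 counts in the lower and the same sign in every animal, up to 8 per direction for interactions, and members of 42 gene lists; some members counted in the lists are not reported here by name. The comparison and the lists were chosen with earlier results of these data known. Promoters are from RefSeq (GRCm38.p6); 12193 of 16658 genes matched by symbol.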

Additional observations from a re-analysis of the deposited data

Results flagged for a closer look

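The paired log2 difference, striatum minus cortex of 1 animal, was compared among the 8 wild-type animals of a line for each of 263 genes and list medians. In 35 such groups (6.65% of those compared) an animal lay far from the other 7, by Dixon's gap test at the 95% level, where chance gives about 1 in 20 groups. Of these, 15 were in neo-in female replicate 3, which had the highest Slc17a7 of any striatum library (141 CPM), and 7 were in neo-out female replicate 3, which had the highest striatal Ttr (1321 CPM). The genes and lists share libraries, so the groups are not independent.

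In neo-in female replicate 3, the difference was -2.19 for Bdnf (others -6.31 to -4.41), -2.80 for Cck (others -5.43 to -4.52), -1.55 for Cort (others -5.17 to -4.13) and -3.47 for Dkkl1 (others -6.84 to -5.49). In neo-in female replicate 3, it was also -1.37 for Gabbr2 (others -2.31 to -2.0), -2.82 for Gm11549 (others -7.86 to -5.63) and -4.84 for Igfn1 (others -9.86 to -7.76). In neo-in female replicate 3, it was also -1.46 for Nr2f1 (others -2.43 to -2.18), -0.04 for Nr4a2 (others -5.56 to -3.07), 1.44 for Ryr1 (others 2.0 to 2.39) and -2.77 for Slc17a7 (others -7.06 to -5.23). In neo-in female replicate 3, it was also -0.19 for Sstr2 (others -3.42 to -2.15), -2.65 for Tbr1 (others -6.41 to -5.10), -2.59 for the median of cortical excitatory neuron markers (others -5.36 to -4.17) and -0.14 for the median of astrocyte markers (others -0.00 to 0.11). In neo-out female replicate 3, the difference was 0.53 for Dcc (others 1.45 to 2.01), -2.82 for Grin2a (others -1.84 to -1.04), -0.84 for Grin2b (others -0.20 to 0.05) and -0.61 for Htt (others -0.28 to -0.03). In neo-out female replicate 3, it was also -0.85 for Oprm1 (others 0.54 to 1.65), 8.44 for Serpina9 (others 5.41 to 6.82) and -0.51 for Slc1a2 (others -0.28 to -0.16). In neo-out male replicate 2, the difference was 7.19 for Chat (others 5.08 to 6.05), 0.63 for Gad1 (others 0.85 to 0.99), 1.02 for Mobp (others 1.25 to 1.44) and 0.75 for the median of oligodendrocyte and myelin markers (others 0.95 to 1.08). In neo-in female replicate 1, the difference was 2.01 for Chrm4 (others 1.2 to 1.54), -0.70 for Mgll (others -1.25 to -0.99) and -2.81 for Pde1a (others -2.01 to -1.52). In neo-out male replicate 1, the difference was -2.93 for Chrm3 (others -2.52 to -2.23). In neo-out female replicate 4, the difference was 0.27 for Gabrd (others 0.58 to 0.83). In neo-out female replicate 1, the difference was 2.09 for Ric8b (others 1.51 to 1.77). In neo-in male replicate 4, the difference was 3.07 for Ebf1 (others 1.75 to 2.27). In neo-in male replicate 3, the difference was 1.19 for Gad1 (others 0.81 to 0.98). In neo-in male replicate 1, the difference was 1.41 for Kcnd2 (others 1.04 to 1.21).

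By line, 14 genes differed in their tissue contrast by a test of the interaction. Among the 10 named, the neo-out minus neo-in difference was 0.43 for Flrt2, 0.54 for Hs3st1, -0.61 for Pwwp2b, -1.09 for Gm9754 and -0.57 for Nuak1. It was -0.38 for Acer2, -0.35 for Smad3, -0.78 for Ky, -0.50 for Bcor and -0.33 for Zfp346. Striatal Slc17a7 was above 50 CPM in 4 neo-out animals and 1 neo-in animal, and without these 5 animals 0 genes were called.

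By genotype, 2323 genes differed in their tissue contrast. The Het minus wild-type difference was 5.52 for Wt1, 1.26 for Sfmbt2, 1.35 for Tnnt2, 0.99 for Pcdh20, 0.74 for A830036E02Rik, 0.57 for Pcdhb9, 0.42 for Tsnax and 0.39 for Polr2a. It was -1.56 for Ryr1, -1.07 for Ankrd35, -1.03 for Ddit4l, -0.93 for Rgs14, -0.82 for Cnr1, -0.58 for Anks1b, -0.55 for Sh2d5 and -0.44 for Rasgef1a. No explanation of these differences was tested.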

How the results depend on the processing

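Of 16658 genes, 12807 were called in the paired fit, and between 10810 (females alone) and 13740 (no filter on low counts) were called under the alternatives, with 12772 under no replicate block. Leaving out each animal in turn gave 12558 to 12928. The block moved no count of genes beyond 1.5 times: without it 1021 genes were 2-fold higher and 1171 were 2-fold lower in striatum. A test against a 1.5-fold threshold (glmTreat) gave 1573 higher and 1776 lower, in place of 1033 and 1170, and no filter on low counts gave 1767 lower, with more genes tested. Leaving out each animal gave 997 to 1051 higher and 1158 to 1219 lower at 2-fold. By line, the count of 14 became 48 with DESeq2, 6 with limma, 8 without the animal with high Ttr and 0 without the 5 animals with high striatal Slc17a7; leaving out each animal gave 8 to 17. The cause of these changes was not tested. By sex, DESeq2 called 1 gene and every single animal left out gave 0. By genotype the count of 2323 ranged from 1843 to 2664. A list median counted as moved where it shifted by at least its SD over the animals, which happened 5 times against 1254 without. With a mean of at least 1 CPM, the serotonin receptor median was -0.76 (from -0.24). The acetylcholine receptor median was then -0.39 (from -0.11). In females alone the GABA and glycine receptor median was -0.17 (from 0.06). The hippocampal marker median was 0.63 with limma and 0.73 in the neo-out line alone (from 1.06). Genes that changed sign were all near 0 or not called in the paired fit. Arntl (-0.001) was 0.001 without mitochondrially encoded genes and 0.001 with no replicate block, 0.143 in the neo-out line alone (adjusted p = 0.00325) and 0.017 in males alone, against -0.169 in the neo-in line alone (adjusted p = 0.0101), and -0.034 to 0.012 with an animal left out. Pax6 (0.074) was -0.118 in the neo-in line alone and -0.077 in females alone, neither called, against 0.247 in the neo-out line alone (adjusted p = 0.0103) and 0.212 in males alone (adjusted p = 0.00784). Polr2a (0.017) was -0.015 without the 5 animals with high Slc17a7, -0.013 in the neo-out line alone and -0.029 in males alone, and -0.009 to 0.023 with an animal left out. In males alone Rpl13a was -0.002 and Slc1a3 was 0.026. With an animal left out, Rpl13a ran -0.004 to 0.049, Rxrb -0.001 to 0.069 and Slc1a3 -0.042 to 0.006. Ttr (0.448) was -0.204 without the 5 animals with high Slc17a7. Depth limits genes below a few CPM, such as Drd3 and Gdnf, which held 62 and 89 counts in all over the 16 cortex libraries.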
